A study of Mus musculus with 4 samples.

Results

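Glucose transporters, glycolytic enzymes, pyruvate dehydrogenase kinases, subunits of the hypoxia-inducible factors (HIFs) and HIF targets were followed by RNA-seq in differentiating mESCs. They were listed by name for their role in the pathway, with no rule on their values but with earlier results of these data known. The list held 36 genes among 55487 gene IDs in the table. Each was matched by its Ensembl ID, and 37 table rows carry one of the 36 symbols because Aldoa has 2 rows, of which the main gene's row was used. RNA came from wild-type E14-Tg2a cells, an established line of mouse embryonic stem cells, during cardiogenic differentiation, with 2 libraries at d2 and 2 at d4. Embryoid bodies of d2 were kept without serum for 48 h. For d4 they were taken apart and allowed to reaggregate during 40 h in medium to which Activin A (8 ng/ml), BMP4 (0.5 ng/ml) and VEGF (5 ng/ml), all human proteins, had been added. Time, added factors and reaggregation therefore changed together and cannot be told apart. By the study's methods the 2 replicates of each day came from 2 independent differentiation experiments on 1 cell line. Whether same-numbered libraries of d2 and d4 shared an experiment is not stated, and the main test did not pair them. The methods describe no sorting of cells before RNA was isolated. The study's flow cytometry found the endothelial protein VE-Cadherin on only a small part of the d4 cells, so these were a mixture. The oxygen level of the cultures is not given in the sources used here.

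Glycolysis turns glucose into pyruvate in a chain of cytosolic reactions, and most of its steps can be run by several isoenzymes that are encoded by different genes and used by different tissues. Pyruvate is then either reduced to lactate by lactate dehydrogenase or carried into mitochondria for oxidation, a step that the pyruvate dehydrogenase kinases restrain. HIFs are dimers of an oxygen-sensitive alpha subunit and the stable beta subunit ARNT. In oxygen, prolyl hydroxylases of the EGLN family mark the alpha subunit for destruction. When oxygen is low the alpha subunit is stable, and the dimer activates genes for glucose uptake, glycolysis, vessel growth and its own hydroxylases. The level of the protein is the regulated quantity, so transcript levels of the subunits do not measure HIF activity. Pluripotent cells are known for high glycolytic flux, and endothelial cells also draw most of their energy from glycolysis.

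The libraries held 11397439 to 16851485 counts in genes, and 3 counts in a library amount to 0.176 to 0.254 CPM (counts scaled to the library total and by TMM factors). The cell mixture changed between the days. Of 8 pluripotency genes 6 were lower at d4, and their summed level went from 1058 and 1321 CPM in the d2 libraries to 35.5 and 36.4 CPM at d4. Of 8 endothelial genes 7 were higher, with sums of 17.6 and 17.8 CPM at d2 and of 863 and 1138 CPM at d4. The 7 mesoderm genes tested and the 8 primitive erythroid genes were all higher. Hand1 and Alas2 had no counts at d2, and no marker of these lists was at 0 in both d4 libraries. Of the definitive endoderm genes all 3 tested were higher, with Sox17 at 0 in both d2 libraries, of the neuroectoderm genes all 3 tested were lower, and of the 4 cardiomyocyte genes tested 1 was higher and 2 were lower. The part of this change of cell types in the results below was not tested, and in bulk RNA fewer cells of a type and less RNA per cell cannot be told apart. Replicates 1 and 2 also differed by GC content, with a Spearman rho over genes of -0.777 at d2 and -0.522 at d4 between GC and the log2 ratio of replicate 2 to replicate 1. GC-poor genes were thus relatively high in both second replicates.

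Of the 36 genes, 35 passed the filter on low counts and 12 changed from d2 to d4 by edgeR's quasi-likelihood test at an adjusted p under 0.01. The genes higher at d4 were Slc2a3, Hk1, Pfkp, Aldoc, Eno3, Ndrg1, Egln1, Egln3, Ankrd37, Ddit4 and Epas1, which are 11 of 35, while 12.9% of the 14932 genes tested were higher. Ldhb was the 1 gene lower, and 11.3% of all genes were. The median log2 fold change over the 35 was 0.37, and over all genes tested it was -0.03. In 21 of the 35 both d4 libraries lay above both d2 libraries and in 3 both lay below. Among all genes tested those shares were 35.8% and 35.2%. Of the 20 transporters and glycolytic enzymes 5 were higher and 1 was lower, with a median log2 fold change of 0.34. Of the 11 HIF targets and subunits tested 6 were higher and 0 lower, with a median of 1.03. At an unadjusted p under 0.05, and in DESeq2, 0 were lower as well. With the replicate number as a block in the edgeR fit, however, Hif1a and Hif3a were called lower. Leaving out either d2 library left no gene of the whole table past the threshold in edgeR, although 6257 genes without replicate 1 and 5973 without replicate 2 had an unadjusted p under 0.05. The smallest adjusted p was then 0.0189 and 0.018. DESeq2 on the same 3 libraries called 8 of the genes higher without d2 replicate 1 and 7 without d2 replicate 2, and it called Ldhb lower both times.

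**Figure D1:**
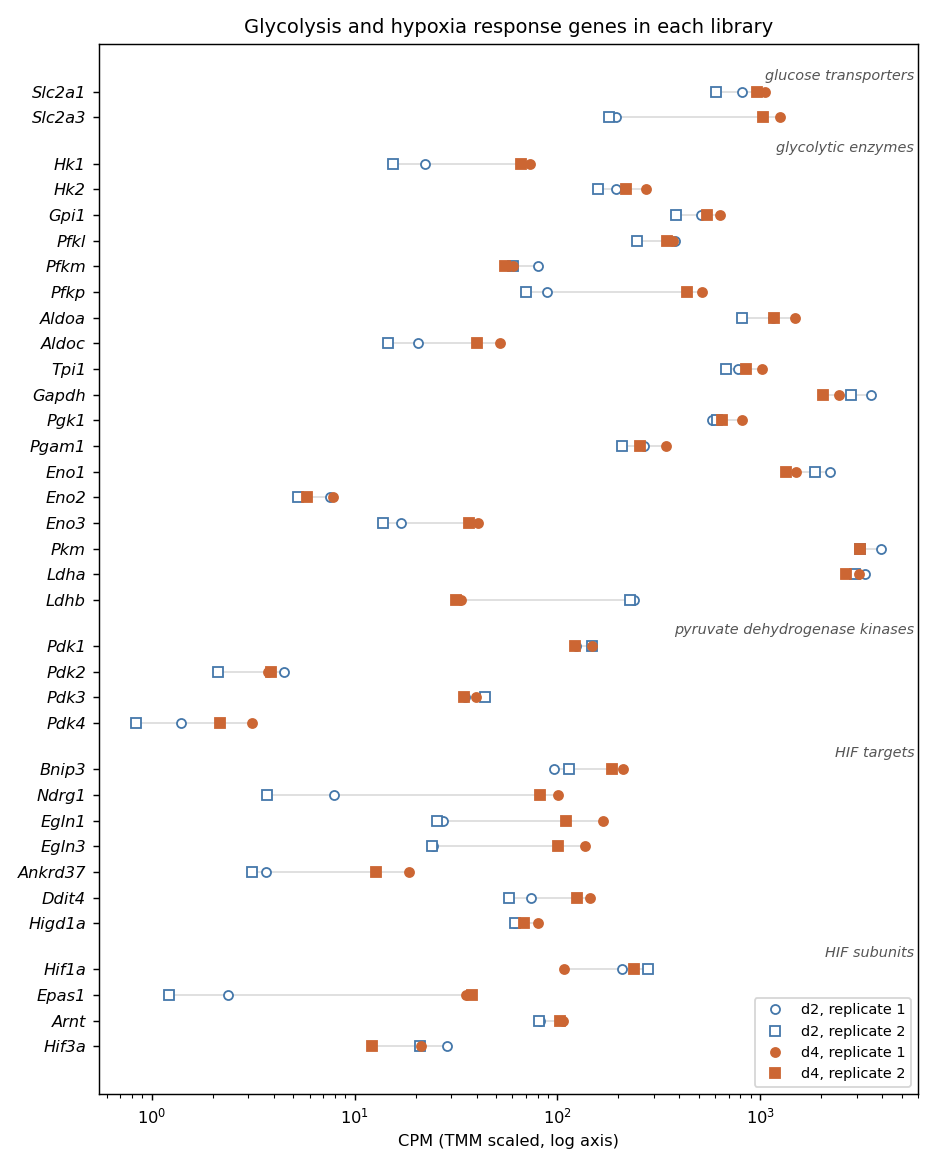
Level of each of the 35 genes tested in each library, in TMM-scaled CPM on a log axis, grouped by role. Open blue points are d2 and filled orange points d4, circles are replicate 1 and squares replicate 2. Slc2a3, Pfkp, Ndrg1 and Epas1 sit far to the right at d4 and Ldhb far to the left, while the d2 and d4 points of Pkm, Ldha and Pdk1 overlap.

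The glucose transporters moved unequally. Slc2a3 encodes GLUT3, a high-affinity transporter known from neurons and the early embryo. It stood at 194 and 180 CPM at d2 and at 1256 and 1034 CPM at d4. The days were far apart beside the gap between replicates, and the gene rose 6.13-fold (log2 fold change 2.62, SE 0.20, edgeR adjusted p = 0.000162). Slc2a1 encodes GLUT1, the basal transporter of most cells. It read 818 and 607 CPM at d2 and 1057 and 966 CPM at d4. Both d4 libraries were above both d2 libraries, but the log2 fold change of 0.51 (95% confidence interval 0.00 to 1.01) did not pass the test (edgeR adjusted p = 0.105). The log2 ratio of Slc2a3 to Slc2a1 counts within a library went from -2.08 and -1.76 at d2 to 0.25 and 0.10 at d4. With 2 libraries a day, the exact two-sided permutation test of a ratio cannot go below p = 0.333, which is its value here.

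Hexokinases trap glucose in the cell by phosphorylating it. Hk1, the broadly used form, had 22.2 and 15.5 CPM at d2 and 73.7 and 66.3 CPM at d4, an increase of 3.71-fold (log2 fold change 1.89, SE 0.25, edgeR adjusted p = 0.00127). Hk2, the form known as inducible by insulin and hypoxia, had 195 and 159 CPM at d2 and 272 and 217 CPM at d4. Its log2 fold change of 0.47 (interval -0.04 to 0.98) did not pass. Hk2 remained the more abundant form per kilobase of exon in all 4 libraries, with 92.6% and 93.6% of the pair at d2 and 84.1% and 82.4% at d4. Gpi1, which interconverts glucose and fructose phosphates, was not called, at a log2 fold change of 0.40 (interval -0.11 to 0.91).

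Phosphofructokinase commits sugar to glycolysis, and its subunits are named for platelet, liver and muscle. The platelet form Pfkp had 89.2 and 69.8 CPM at d2 and 518 and 435 CPM at d4. It rose 6.00-fold (log2 fold change 2.58, SE 0.23, edgeR adjusted p = 0.000238), and the days did not overlap. The liver form Pfkl overlapped between days, with 381 and 247 CPM at d2 and 374 and 347 CPM at d4. The muscle form Pfkm also overlapped, with 80.0 and 60.1 CPM at d2 and 60.3 and 55.2 CPM at d4. Relative to Pfkp, the counts of Pfkl were 5.12-fold lower at d4 than at d2 and those of Pfkm 7.24-fold lower (both exact permutation p = 0.333). Per kilobase of exon, Pfkp held 7.59% and 8.65% of the 3 subunits at d2 and 34.3% and 32.2% at d4.

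In the middle of the chain, aldolase splits the sugar. Aldoa, the main aldolase, did not overlap between days but was not called, at 1154 and 814 CPM at d2 and 1480 and 1167 CPM at d4 (log2 fold change 0.43, interval -0.14 to 1.00). The brain-type Aldoc rose from 20.5 and 14.6 CPM to 52.0 and 40.0 CPM, 2.62-fold (log2 fold change 1.39, SE 0.26, edgeR adjusted p = 0.00609). DESeq2 lost this call when d2 replicate 1, d2 replicate 2 or d4 replicate 1 was left out, with log2 fold changes of 1.10 to 1.65 over the leave-outs. Aldoc stayed a small part of the pair, from 1.56% and 1.57% at d2 to 3.04% and 2.97% at d4 per kilobase of exon. Tpi1, which balances the triose phosphates, went from 781 and 681 CPM to 1019 and 849 CPM. That difference did not pass either (log2 fold change 0.35, interval -0.11 to 0.82).

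Gapdh, the dehydrogenase that starts the payoff phase, is a common reference gene and was the normalizer of the study's own RT-PCR. It had 3528 and 2822 CPM at d2 and 2446 and 2040 CPM at d4. Both d4 libraries were below both d2 libraries, and the log2 fold change of -0.50 (interval -0.99 to -0.01) did not pass the test (edgeR adjusted p = 0.0997). Eno1, the main enolase, did the same, with 2200 and 1872 CPM at d2 and 1498 and 1340 CPM at d4 (log2 fold change -0.52, interval -0.97 to -0.07, edgeR adjusted p = 0.0696). Both passed with a correction for GC content and length, at -0.73 for Gapdh (edgeR adjusted p = 0.00438) and -0.74 for Eno1 (edgeR adjusted p = 0.00556), which brought the genes lower at d4 to 3. When Gapdh alone set the scale, the median over all genes tested moved to 0.47 on the log2 scale, and the same 12 of the 35 genes were called in the same directions. Pgk1 and Pgam1, the next steps, had log2 fold changes of 0.30 (interval -0.17 to 0.77) and 0.33 (interval -0.22 to 0.89).

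The muscle enolase Eno3 rose from 16.9 and 13.9 CPM to 40.8 and 36.5 CPM, 2.51-fold (log2 fold change 1.33, SE 0.22, edgeR adjusted p = 0.00363). DESeq2 lost the call of Eno3 in the same 3 leave-outs as that of Aldoc, with log2 fold changes of 1.13 to 1.47. The neuronal enolase Eno2 overlapped between days at 5.24 to 7.61 CPM at d2 and 5.82 to 7.87 CPM at d4. Pkm makes pyruvate and overlapped as well, with 3954 and 3104 CPM at d2 and 3071 and 3112 CPM at d4 (log2 fold change -0.19, interval -0.66 to 0.28). Summed over the 18 enzymes, the libraries held 17313 and 14245 CPM at d2 and 15822 and 13847 CPM at d4, so the days overlapped in total.

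The largest decrease was in lactate dehydrogenase B. Ldhb encodes the heart-type subunit, which favours the oxidation of lactate to pyruvate. It had 238 and 228 CPM at d2 and 33.5 and 31.8 CPM at d4, a 7.14-fold difference with very close replicates (log2 fold change -2.84, SE 0.20, edgeR adjusted p = 0.000115). Ldha, the muscle-type subunit that favours lactate, overlapped between days with 3287 and 2929 CPM at d2 and 3077 and 2648 CPM at d4 (log2 fold change -0.12, interval -0.56 to 0.33). Within a library the log2 ratio of Ldhb to Ldha counts went from -3.79 and -3.68 to -6.52 and -6.38. Per kilobase of exon, Ldhb held 13.3% and 14.1% of the pair at d2 and 2.24% and 2.47% at d4.

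None of the 4 pyruvate dehydrogenase kinases was called by edgeR or DESeq2. Pdk4 alone had an unadjusted p under 0.05 in edgeR, 1 of the 4, and alone did not overlap between days. Of the 14932 genes tested, 7044 had such a p. In 35.8% of all genes both d4 libraries lay above and in 35.2% below both d2 libraries. The family thus held no more such genes than the background. Pdk1, the isoform best known as a HIF target, had 124 and 149 CPM at d2 and 148 and 122 CPM at d4 (log2 fold change -0.02, interval -0.52 to 0.48). Pdk3 stood at 34.9 and 43.8 CPM and then at 39.7 and 34.7 CPM. Pdk1 and Pdk3 together made up most of the family per kilobase of exon in every library. Pdk4, known from fasting muscle, was scarce, with 17 and 11 counts at d2 and 37 in each d4 library (log2 fold change 1.24, interval 0.26 to 2.22, edgeR adjusted p = 0.053). Pdk2 had 28 to 66 counts a library, and a difference of up to 1.16 on the log2 scale lay within its interval.

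**Figure D2:**
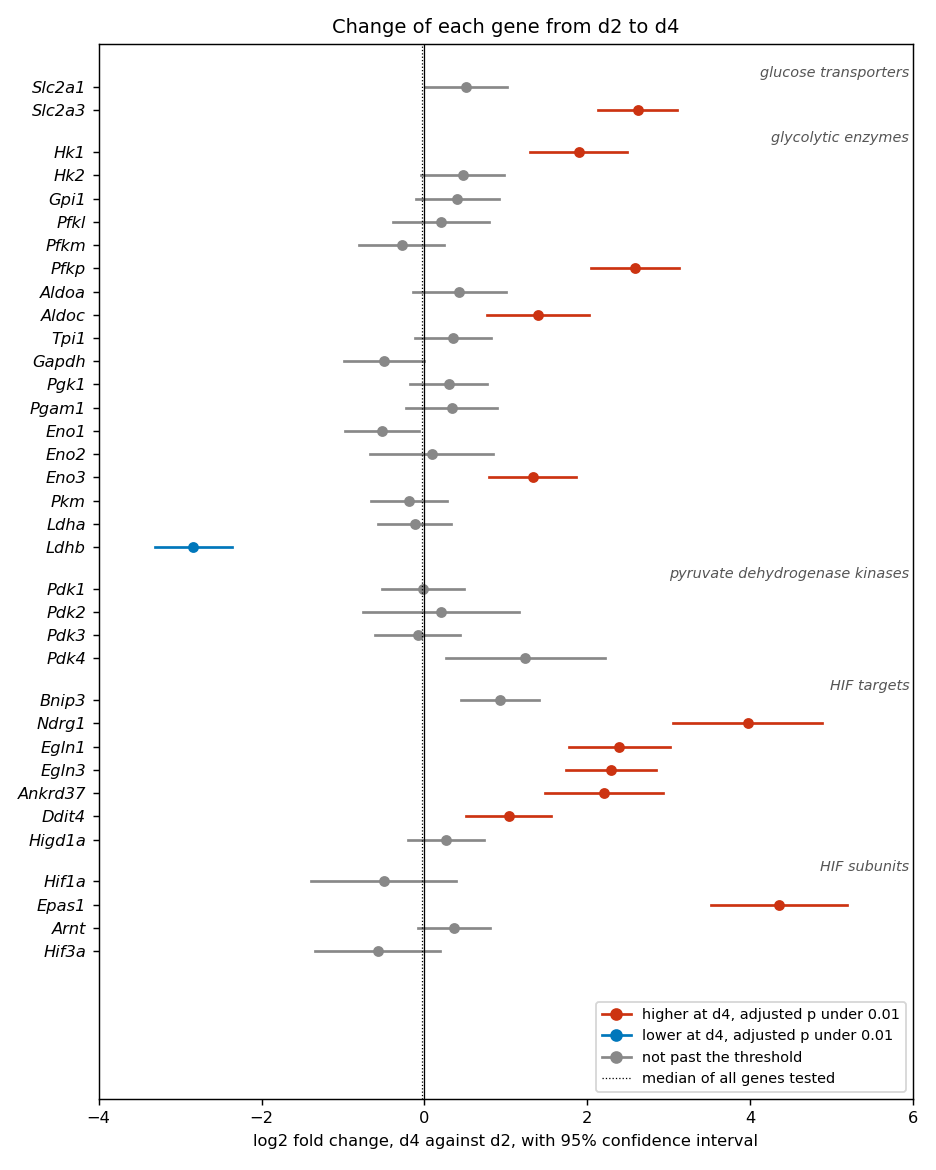
The log2 fold change of d4 against d2 for each of the 35 genes tested, with its 95% confidence interval from the edgeR fit, grouped by role. Red marks genes higher at d4 and blue a gene lower at d4 at an adjusted p under 0.01, grey marks the others, and the dotted line at -0.03 is the median of all 14932 genes tested. Most enzymes lie near the line, and 5 of the 7 HIF targets tested lie at 1.03 or above in red.

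In 12 pairs within a gene family, HIF alpha subunits included, the ratio of counts within a library needs no scaling between libraries. It was higher at d4 in both libraries for 5 pairs, lower in both for 4 and overlapping for 3. Among single genes tested, 35.8% lay above and 35.2% below in both d4 libraries, so these counts are near those shares. No such share was computed for ratios of other genes. Pfkp, Eno1 and Hif1a are each in more than 1 pair, so the pairs are not separate results. The pairs that shifted most among enzymes were Pfkm to Pfkp, Ldhb to Ldha and Pfkl to Pfkp. Eno3 to Eno1 shifted 3.60-fold and Eno2 to Eno1 1.54-fold. For the latter the isoform itself was not called, and the denominator Eno1 had lower values at d4. The 3 that overlapped were Pdk3 to Pdk1, Egln3 to Egln1 and Hif3a to Hif1a. Where the length of a gene was taken as the number of 75-base windows of its longest coding transcript that occur in no other annotated gene, instead of all annotated exons, the shares within most families moved. At d4 the mean share of Hk1 was then 27.1% and not 16.7%, that of Aldoc 1.82% and not 3.00%, and that of Eno3 1.22% and not 7.73%. Slc2a3 was at 48.1% and not 35.3%. Ldhb was at 1.81% and not 2.36%. Pfkp was then at 49.5% ± 1.72 (SD, n = 2) of its family at d4 and Pfkl at 41.8% ± 1.49, while by exon length Pfkp was at 33.2% ± 1.51 and Pfkl at 50.6% ± 1.26. The order of these 2 subunits at d4 thus depended on the length used. The direction of the mean share from d2 to d4 was the same under both lengths for each member of these families. In families of 2 genes whose days did not overlap, the direction was fixed in advance by the ratio of counts, whichever length was used.

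**Figure D3:**
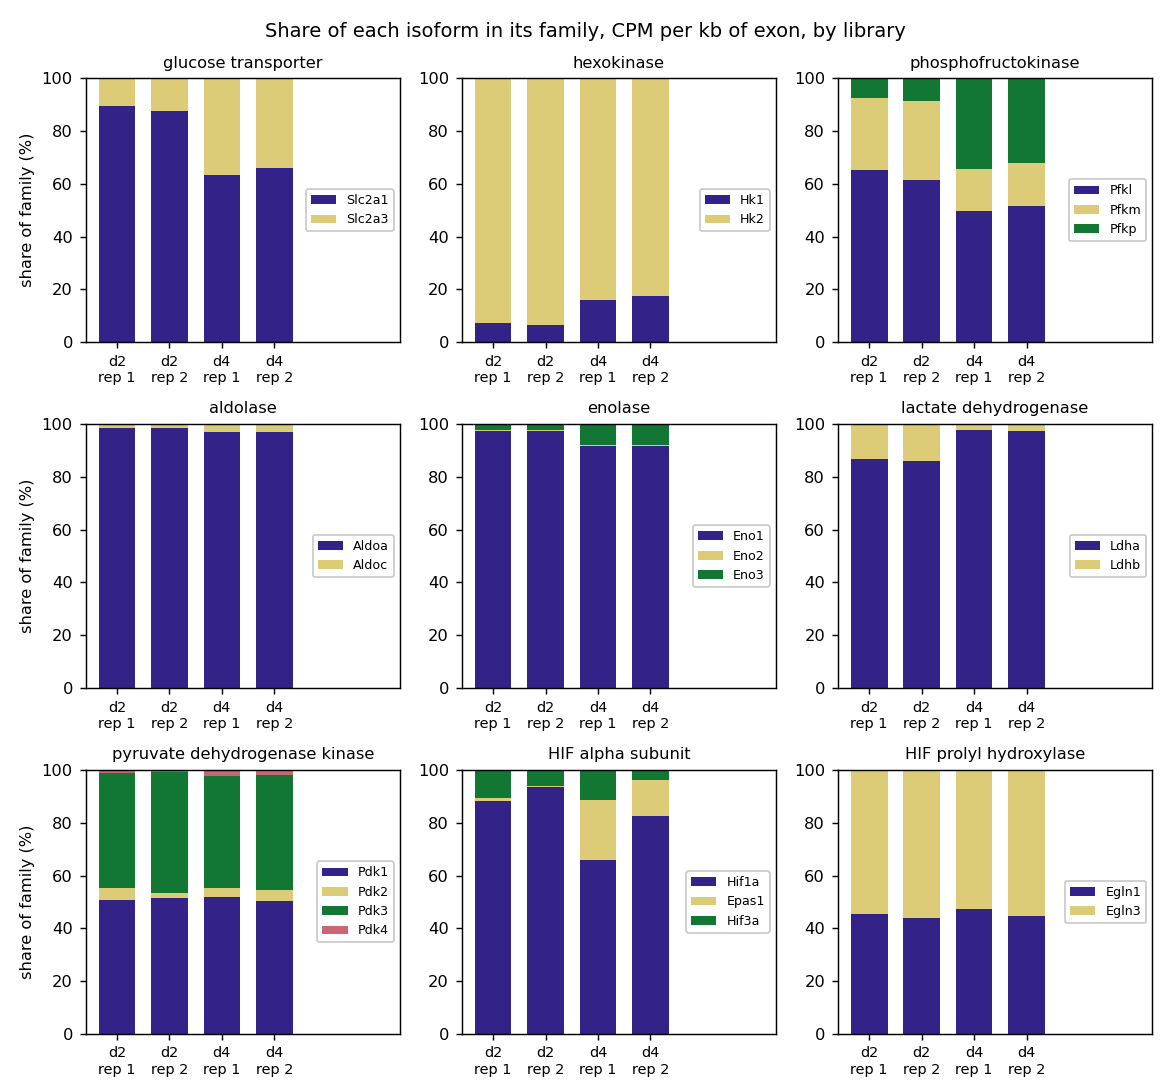
Share of each isoform in its family in each library, in percent of the family's CPM per kilobase of annotated exon, with 1 bar per library. Slc2a3, Hk1, Pfkp, Aldoc, Eno3 and Epas1 take larger shares in both d4 libraries than in both d2 libraries and Ldhb takes smaller ones. The shares of both prolyl hydroxylases overlap between days.

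Among HIF targets, Ndrg1 had the largest fold. It encodes a stress-responsive cytoplasmic protein known for its induction by hypoxia, and it had 7.93 and 3.72 CPM at d2 and 100 and 81.8 CPM at d4. This was a 15.7-fold rise (log2 fold change 3.97, SE 0.39, edgeR adjusted p = 0.000361), although the 2 d2 libraries differed from each other, with 97 and 49 counts. The prolyl hydroxylase genes rose side by side. Egln1, which encodes the main oxygen sensor PHD2, had 27.3 and 25.4 CPM at d2 and 167 and 110 CPM at d4 (log2 fold change 2.39, SE 0.26, edgeR adjusted p = 0.000576). Egln3, which encodes PHD3, had 24.5 and 24.1 CPM at d2 and 137 and 101 CPM at d4 (log2 fold change 2.29, SE 0.23, edgeR adjusted p = 0.000432). Replicate 1 was the higher d4 library for both, and the log2 ratio of Egln3 to Egln1 overlapped between days, between -0.29 and -0.07.

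Ankrd37 encodes a small ankyrin-repeat protein and is known as a direct HIF target. Its counts were low, at 45 and 41 at d2 and 219 and 217 at d4, and the level rose 4.59-fold (log2 fold change 2.20, SE 0.30, edgeR adjusted p = 0.00157). DESeq2 lost this call without d2 replicate 2 and without d4 replicate 1, and its log2 fold change over all leave-outs was 1.91 to 2.45. Ddit4 encodes REDD1, which restrains mTORC1 under stress. It had 74.4 and 57.5 CPM at d2 and 145 and 125 CPM at d4, and it lay just inside the threshold (log2 fold change 1.03, SE 0.22, edgeR adjusted p = 0.00971). That call was lost with DESeq2 size factors, with upper-quartile factors, with a filter at 1 CPM, and with thinning to equal depth, where the log2 fold change was 0.99. It was also lost in edgeR without d4 replicate 1, at 0.93, and in DESeq2 whichever of the 4 libraries was left out. The lowest leave-out value was 0.80. Bnip3, a mitophagy receptor, lay just outside, with 96.1 and 114 CPM at d2 and 211 and 187 CPM at d4 (log2 fold change 0.92, SE 0.20, edgeR adjusted p = 0.011). It passed in DESeq2 (adjusted p = 0.00122), in limma voom (adjusted p = 0.00980) and with the GC and length correction, at 1.38. Over all alternatives its log2 fold change was 0.79 to 1.40. Higd1a, a mitochondrial protein, had 61.99 and 61.96 CPM at d2 and 80.5 and 68.8 CPM at d4, and did not pass (interval -0.20 to 0.73). Car9, a carbonic anhydrase often used as a marker of hypoxic tissue, was not tested. The d2 libraries held 1 and 2 reads of it and the d4 libraries 1 and 0, at or under 3 counts in each library, so a difference was not detectable at this depth.

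HIF dimers bind a short core with the letters ACGTG or GCGTG. Such cores are shown here in windows before RefSeq start sites of genes described above. The RefSeq promoter windows (GRCm38.p6, 250 bases before and 50 after each start) matched 33 of the 36 genes, and no window was given for Slc2a3, Epas1 or Ndrg1. The first 4 belong to genes that rose and the last 2 to known HIF targets that were not called, each window being the 120 bases before the start with the most matches, and none overlaps an annotated exon. They are Ankrd37 at chr8:45999972-46000091 on the minus strand, Ddit4 at chr10:59951838-59951957 (minus), Egln3 at chr12:54203984-54204103 (minus), Pfkp at chr13:6648788-6648907 (minus), Ldha at chr7:46845659-46845778 (plus) and Pgk1 at chrX:106186950-106187069 (plus). Each is written 5′ to 3′ on its gene's strand, and capitals mark ACGTG or GCGTG read on either strand, so that CACGT and CACGC are also in capitals and neighbouring matches run together.
Ankrd37: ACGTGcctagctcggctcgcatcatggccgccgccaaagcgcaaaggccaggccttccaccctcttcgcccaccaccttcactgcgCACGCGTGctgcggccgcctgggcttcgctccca
Ddit4: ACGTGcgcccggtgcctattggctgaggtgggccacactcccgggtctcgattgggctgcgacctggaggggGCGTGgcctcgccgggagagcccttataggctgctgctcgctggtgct
Egln3: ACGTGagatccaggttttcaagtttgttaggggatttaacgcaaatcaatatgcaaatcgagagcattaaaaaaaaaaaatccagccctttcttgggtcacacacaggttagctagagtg
Pfkp: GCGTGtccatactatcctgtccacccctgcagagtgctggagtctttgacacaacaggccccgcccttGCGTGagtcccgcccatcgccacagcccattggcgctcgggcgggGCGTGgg
Ldha: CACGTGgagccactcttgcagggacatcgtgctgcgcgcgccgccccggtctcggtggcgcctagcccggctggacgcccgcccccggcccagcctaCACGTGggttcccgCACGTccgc
Pgk1: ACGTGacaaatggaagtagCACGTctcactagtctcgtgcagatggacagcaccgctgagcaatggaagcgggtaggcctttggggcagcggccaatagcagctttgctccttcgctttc
Every window shown has at least 1 core, as these windows were chosen to show cores. They do not compare genes that rose with genes that were not called. For Ankrd37 and Ldha the RefSeq start used lies 5857 and 4329 bases downstream of the annotated start of the gene. Their windows are therefore inside the annotated gene. Gpi1, Eno2 and Tpi1 held no core in the bases before their start. Over all genes with a window, 30 of 33 (90.9%) held either core in at least 1 of their windows. The share was 67.3% of the 10717 tested genes with a window and 46.7% of all 27025 genes. Counted by window, 37 of 46 (80.4%) did, beside 43.8% of all 32851 windows of the same length. All 8 of the genes that were higher at d4 and had a window held a core, and so did 20 of the 23 that were not called. ACGTG alone stood in 21 of 33 (63.6%), beside 29.1% of tested genes, and in all 7 HIF targets with a window, Car9 among them. Many of these genes are known HIF targets, so the share describes the list and was not tested. A match of letters is not a bound site.

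Of the 4 HIF subunits, Epas1 was the 1 that passed the test with day as the only term. Epas1 encodes HIF-2α, the alpha subunit known from endothelium. The d2 libraries held 29 and 16 counts of it, or 2.37 and 1.21 CPM, and 35.3 and 37.8 CPM at d4. The rise was 20.4-fold (log2 fold change 4.35, SE 0.35, edgeR adjusted p = 0.000178), the largest among the 35 genes. Hif1a encodes HIF-1α, the broadly expressed alpha subunit, and its libraries overlapped between days. It had 209 and 281 CPM at d2 and 108 and 238 CPM at d4, with the second replicate higher on both days. Its log2 fold change was -0.50 (interval -1.39 to 0.39, edgeR adjusted p = 0.332). The value rested on the d4 library used. It was -1.18 without d4 replicate 2 (edgeR adjusted p = 0.00382) and -0.04 without d4 replicate 1 (edgeR adjusted p = 0.946). The GC content of Hif1a is 41.3%, the lowest of the 36 genes, and with the GC and length correction the value was -0.29. The part of GC content in the gap between its replicates was not tested beyond that correction.

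The log2 ratio of Epas1 to Hif1a counts went from -6.43 and -7.81 at d2 to -1.61 and -2.65 at d4, a shift of 4.99 (exact permutation p = 0.333). Hif1a was still the larger alpha subunit per kilobase of exon in all 4 libraries, with 88.4% and 93.4% of the 3 at d2 and 65.9% and 82.5% at d4. Epas1 took 1.06% and 0.43% at d2 and 22.7% and 13.8% at d4. Hif3a, whose products can restrain the other alpha subunits, had 28.5 and 21.1 CPM at d2 and 21.2 and 12.2 CPM at d4 and was not called. Arnt, the shared beta subunit, had close replicates at 82.0 and 81.2 CPM at d2 and 107 and 103 CPM at d4. Its log2 fold change of 0.37 (interval -0.07 to 0.81) did not pass.

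Per kilobase of exon, the order of levels was led by the same abundant enzymes on both days. Ldha was first, with 939 ± 76.4 CPM per kb (SD, n = 2) at d2 and 865 ± 91.7 at d4. By exon length, Gapdh at 768 ± 121 and Pkm at 706 ± 120 followed at d2 and did not differ beyond their spread. At d4 Pkm at 618 ± 5.70 and Gapdh at 543 ± 69.4 came next, and the gap was about that of the spread of Gapdh. Ldhb fell from rank 9 of 36 to rank 22. Slc2a3 moved from rank 17 to rank 9, Pfkp from 26 to 18, Egln3 from 23 to 15 and Egln1 from 25 to 17. Epas1 moved only from rank 34 to rank 31, with 6.54 ± 0.31 CPM per kb at d4. Pdk4 and Car9 were last on both days.

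Some of these levels are uncertain because reads that map to several places were not counted. Of the 75-base windows of the longest coding transcript, 80.3% of those of Gapdh also occur in another annotated gene, and 177 annotated genes hold a similar sequence. The share was 67.5% for Pgk1, 65.4% for Eno1, 40.6% for Pgam1, 31.0% for Bnip3, 16.8% for Ldhb and 15.6% for Pkm. It was 0 for 23 of the 36 genes, Slc2a3, Pfkp, Hk1, Aldoc, Eno3, Ndrg1, Egln1, Egln3, Ankrd37, Ddit4 and Epas1 among them. Pseudogene copies of Gapdh took 1114 to 1368 counts a library. For the copy Eno1b, d2 replicates gave 4046 and 3093 counts while d4 replicates gave 2332 and 3063 (log2 fold change -0.58, edgeR adjusted p = 0.0859), and Eno1 with its copy summed to 2531 and 2107 CPM at d2 and to 1695 and 1520 CPM at d4.

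A further 81 genes of the pathway were listed by role, and 69 of them were tested. Of the 34 tested in sugar and pyruvate handling 4 were higher and 2 lower, with a median log2 fold change of 0.31. The shares of all genes were 12.9% and 11.3%, so this count is near the background. Pfkfb4, an enzyme that sets the level of the phosphofructokinase activator, rose from 4.58 ± 0.35 CPM (SD, n = 2) to 19.7 ± 1.68 CPM (log2 fold change 2.10, edgeR adjusted p = 0.000784). Pgm1, which links glycogen to glycolysis, rose from 36.3 ± 2.85 CPM to 124.0 ± 16.0 CPM (log2 fold change 1.77, edgeR adjusted p = 0.000800). Mpc2, a subunit of the mitochondrial pyruvate carrier, rose by 1.45 on the log2 scale (edgeR adjusted p = 0.00576). The gluconeogenic Fbp1 fell by 2.26, from 5.28 to 1.12 CPM, but its mean over the days is below the 5 CPM set for naming, so it was chosen after its value was seen. The same holds for the testis-type Ldhc, which fell by 4.64, from 7.91 to 0.29 CPM, and for Slc2a12, which rose at under 3 CPM. The lactate exporter genes Slc16a1 and Slc16a3, the subunits Pdha1 and Pdhb of pyruvate dehydrogenase and the entry enzyme of the pentose phosphate pathway G6pdx, named for their roles after their values were seen, were among the 28 not called. On the log2 scale Slc16a3 was at 0.74 (interval 0.16 to 1.32) and G6pdx at -0.60 (interval -1.06 to -0.13). The intervals of Slc16a1, Pdha1 and Pdhb spanned no change.

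Of the 35 genes tested from the HIF pathway and its targets, 13 were higher and 2 lower, beside the same 12.9% and 11.3% of all genes, with a median log2 fold change of 0.87. Vldlr, a lipoprotein receptor, rose from 7.05 ± 0.20 CPM to 307 ± 4.41 CPM (log2 fold change 5.44, SE 0.22). Vegfa, the endothelial growth factor, rose from 6.88 ± 0.92 CPM to 127 ± 8.89 CPM (log2 fold change 4.21, SE 0.23). The added VEGF was a protein and is not counted as RNA. The matrix enzymes Loxl2 and P4ha1 rose by 3.93 and 3.64, P4ha2 by 2.53, and Cited2, which competes with HIFs for their coactivators, by 3.34 on the log2 scale. The 2 that fell were Arnt2, a relative of Arnt known from neural cells, at 30.8 ± 5.57 and then 4.65 CPM (log2 fold change -2.73, edgeR adjusted p = 0.000316), and Angptl4, a secreted inhibitor of lipoprotein lipase, at 10.2 ± 0.26 and then 1.39 ± 0.55 CPM (log2 fold change -2.90, edgeR adjusted p = 0.000938). Vhl and Hif1an, which act with the prolyl hydroxylases, and the hydroxylase gene Egln2, named in the same way, were not called, at log2 fold changes of 0.52, -0.14 and 0.49. Many genes in this list are also used by mesoderm or endothelium, whose markers moved with the days. Others are used by matrix-producing cells, for which no markers were listed. The part of the cell types was not tested.

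**Figure D4:**
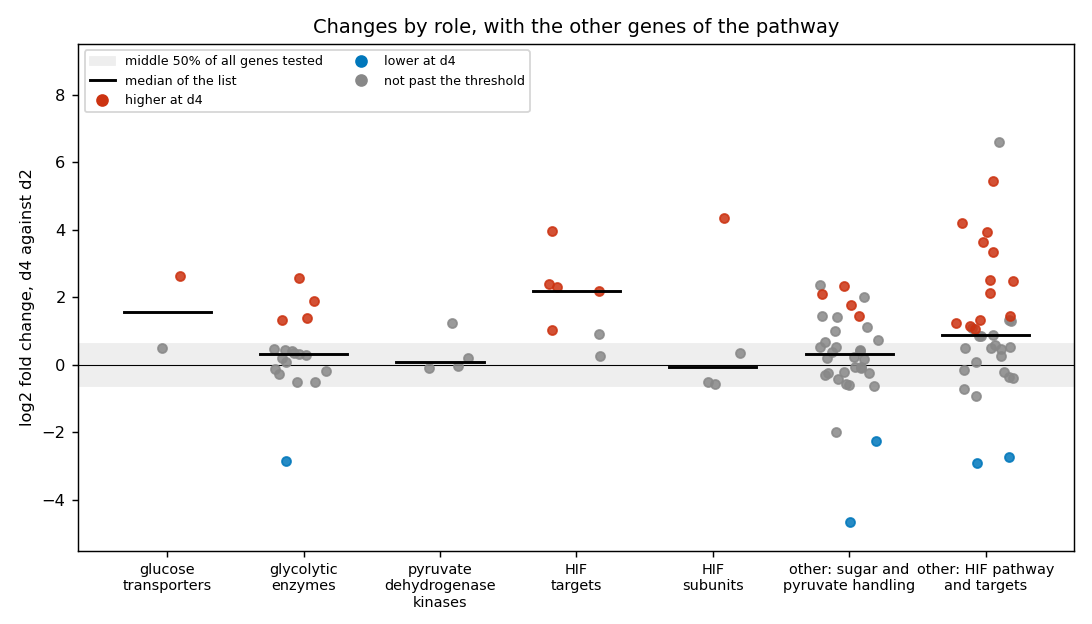
The log2 fold change of d4 against d2 for the genes tested in each role group and in both lists of other pathway genes, 1 point per gene, with the median of each list as a black line and the middle 50% of all genes tested as a grey band. Red points are higher and blue points lower at an adjusted p under 0.01. The medians of the HIF targets, at 2.20, of the pair of transporters, at 1.56, and of the other HIF pathway genes, at 0.87, lie above the band.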

How the data were processed

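RNA from E14-Tg2a cells was sequenced in 2 libraries per day, paired-end and strand-specific with reads of 75 bp. Per the labels and the study's methods, the authors trimmed reads with cutadapt, aligned them to mm10/GRCm38 with STAR and made the deposited counts per gene with featureCounts, without reads mapping to several places or overlapping several genes and with no normalization. Symbols, positions and exon lengths came from GENCODE M21, in which 55227 of 55487 IDs matched. The annotation used for counting is named in 2 ways in the methods. The labels name a forward-strand table and the table analysed is named for the reverse strand.

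Genes were kept where a proportion test against 0.5 CPM gave an adjusted p under 0.05 in either day. The comparison used R 4.3.3 and edgeR 4.0.16 (TMM, glmQLFit, glmQLFTest, day as the only term, two-sided) with Benjamini-Hochberg adjustment over 14932 genes and a threshold of 0.01. DESeq2 1.42.0, limma voom 3.58.1 and other scalings, filters and leave-outs were alternatives, and each leave-out of edgeR takes the lone library to vary like the other day. Ratios of counts had 0.5 added. All 36 members were named, with up to 6 other pathway genes per list and direction past the test at a mean of 5 CPM or more. The members and lists were chosen with earlier results of these data known. P-values measure the spread between libraries, and intervals cover this spread only.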

Additional observations from a re-analysis of the deposited data

How the results depend on the processing

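Car9, at or under 3 counts in each library, was the 1 member that depth kept from the test. Apart from leaving out a d2 library in edgeR, where 0 genes of any kind were called, Slc2a3, Hk1, Pfkp, Ldhb, Ndrg1, Egln1, Egln3 and Epas1 kept their call and direction in every alternative run. The replicate numbers mark no shared batch in the labels. The deviations of same-numbered libraries correlated at 0.569. With the replicate number as a block, the members lower at d4 became 5, the transporters and enzymes lower 3, the HIF subunits and targets lower 2, the other pathway genes 32 higher and 8 lower, and all genes 3478 higher and 3496 lower. The members added were Slc2a1, Pdk4 and Bnip3 as higher and Gapdh, Eno1, Hif1a and Hif3a as lower. With the block and a correction for GC and length these counts were 4, 3, 1, 31 and 9, and 3346 and 3381. With the correction alone, 3 members and 3 transporters and enzymes were lower, 26 other pathway genes were higher and 9 lower, and 2708 of all genes were lower. Without a filter 31 other pathway genes were higher, and 2901 of all genes were higher and 2873 lower. At an adjusted p under 0.05 these numbers were 30 other pathway genes higher and 7 lower, and 2991 and 2679 of all genes. With Gapdh as the reference 878 of all genes were lower. With ACGTG alone the promoter share was 63.6%.

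Over the leave-outs in edgeR and DESeq2, 0 to 12 members were higher and 0 to 2 lower. Transporters and enzymes ranged from 0 to 5 higher and 0 to 1 lower, HIF subunits and targets from 0 to 7 higher and 0 to 1 lower, other pathway genes from 0 to 24 higher and 0 to 5 lower, and all genes from 0 to 2264 higher and 0 to 2458 lower. The cause was not tested, beyond the smaller number of samples in each of these fits.

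Signs changed only among members that were not called. With Gapdh as the reference the log2 fold change was 0.23 for Pfkm, 0.32 for Pkm, 0.38 for Ldha, 0.45 for Pdk1, 0.39 for Pdk3 and 0.019 for Hif1a. With the correction for GC and length it was -0.028 for Pfkl and -0.14 for Eno2, and with the block added -0.027 and -0.14. Over the leave-outs it ran from -0.14 to 0.54 for Pfkl, -0.22 to 0.37 for Eno2, -0.16 to 0.12 for Pdk1, -0.29 to 0.84 for Pdk2 and -0.26 to 0.072 for Pdk3, and the shift of the log2 ratio of Hif3a to Hif1a from -0.98 to 0.96. The length taken from unshared windows of the longest coding transcript was chosen after seeing the data.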
